A study of Mus musculus with 8 samples.

Results

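The N6-methyladenosine (m6A) sites of control TBLC were described from the 2 control libraries of the series, out of 8 libraries in all. Members were the sites called in both control lists at the same chromosome, position and strand. There were 49554 such sites out of 78753 called in either list, and 46343 of them carried a gene name, spread over 8492 genes. The level of a site was the mean, over the 2 libraries, of the share of unconverted A among the A and G reads there.

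The study used GLORI on mouse mRNA, in which glyoxal and nitrite turn plain adenosine into inosine, sequenced as G, while m6A resists and is sequenced as A. Both libraries came from TBLC grown in MYCP medium and given siNC, a control siRNA. The other 6 libraries (TBLC given siVirma, and EPSC with sgCtrl or sgGata6) were not used here. In the literature TBLC stands for totipotent blastomere-like cells, although the labels do not spell it out. The labels do not say whether the 2 libraries came from separate cultures, so their spread may be technical.

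In mammalian mRNA, m6A is written cotranscriptionally by a complex built on METTL3 and METTL14, mostly at adenosines in the DRACH consensus (D is A, G or U; R is A or G; H is A, C or U). YTH-domain proteins bind it, and in the cytoplasm it is best known for speeding mRNA decay. Loss of m6A in mouse embryonic stem cells is known to stabilise transcripts of pluripotency regulators such as Nanog.

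The lists held 66350 sites with 4764955 A+G reads in replicate 1 and 61957 sites with 4367999 A+G reads in replicate 2, in 9682 and 9365 named genes. The shared sites were 74.7% of the first list and 80.0% of the second. Sites called in replicate 1 only (16796) had a median level of 0.273 at a median of 26 reads, and those in replicate 2 only (12403) had 0.24 at 27 reads. Shared sites were deeper, with medians of 45 and 42 reads. From the values, a site was listed only with 15 or more A+G reads, 5 or more A reads and a level from 0.1 up. At 15 reads the lowest level that 5 A reads give is 0.333, so low levels could be listed only where coverage was high. Values are therefore also given for the 19384 shared sites covered by 50 or more A+G reads in both libraries.

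Genes of the cell state were read from the authors' gene coverage, a value per gene given only for genes with a listed site. All 8 pluripotency markers had a shared site, with coverages from 67.6 (Klf4) to 1006 (Pou5f1). Of 15 markers of the 2-cell program, 11 had one, at coverages of 16.8 to 116, and Tcstv1, Tdpoz1, Tdpoz4 and Duxf3 had none. The upper end was Eif1a (116 and 113), which also counts among the translation factors below. Fibroblast markers, which feeder cells would carry, had shared sites for 9 of 10 genes at coverages of 23.1 to 188. Among them were Col1a1 (76.0 and 72.2) and Fn1 (188 and 178), which sets the upper end of that range. Col3a1 had no shared site. For trophectoderm 1 of 5 markers (Eomes) had a shared site, and for primitive endoderm 3 of 5. The part of fibroblast or other RNA in the site levels was not tested. A marker without a site is not shown to be missing from the cells.

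The levels of a site called in both lists were close in the 2 libraries. The median level was 0.411 in replicate 1 and 0.410 in replicate 2 (mean 0.410 ± 0.000435 SD, n = 2). A site's levels differed by a median of 0.0504, and by 0.0345 at sites with at least 50 reads in each. Across sites, which are not independent replicates, Pearson's r was 0.936 and Spearman's rho 0.926. The squared difference, divided by the variance that counting reads gives, averaged 0.930 over all sites and 1.11 over the 2285 sites with at least 200 reads. By this measure the levels of shared sites agree about within counting noise. Sites called in 1 list only are left out, and the call in both lists itself limits how far levels can differ. Agreement over all sites was therefore not measured. For coverage, taking 1 site per gene, the chi-square per site had a mean of 1.55 and a median of 0.539, and the libraries were counted as 2. A two-sided Fisher's exact test of A and G reads with Benjamini-Hochberg adjustment called 2 of 49554 sites (0.00404%), and 1493 (3.01%) had an unadjusted p under 0.05. Both called sites lay in Gm26917 on chromosome 17, a predicted gene with at least 37749 reads at each. Their levels were 0.871 and 0.858 at position 40159055, and 0.548 and 0.517 at position 40159073. This test compares 2 libraries of 1 group, not conditions.

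Most sites were partly methylated. Quartiles of the level were 0.243, 0.410 and 0.683. Of the 49554 sites, 17078 (34.5%) were below 0.3 and 8188 (16.5%) were at 0.8 or more, while 231 (0.466%) were fully methylated in both libraries. The share of sites per step of 0.1 went from 17.5% between 0.2 and 0.3 to 7.18% between 0.7 and 0.8, then to 8.51% above 0.9. At sites with at least 50 reads the distribution lay lower, with quartiles of 0.185, 0.317 and 0.596. There 47.7% of sites were below 0.3, 13.2% at 0.8 or more and 0.0619% fully methylated in both libraries. In these deeper sites the step from 0.1 to 0.2 was the fullest, with 29.2% of them. The small second peak above 0.8 was present in both sets of sites and in each library.

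**Figure D1:**
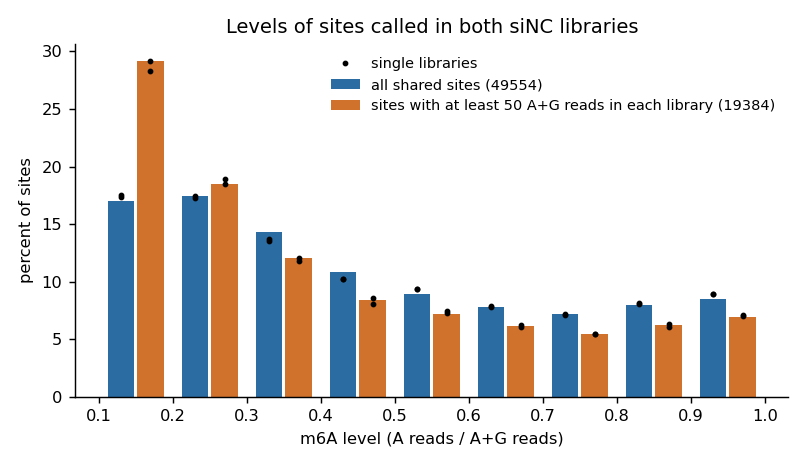
Percent of shared sites (vertical axis) in steps of 0.1 of the m6A level (horizontal axis), for all 49554 sites and for the 19384 covered by 50 or more A+G reads in both libraries; bars are sites binned by their mean level and black points the single libraries. The lowest step holds 29.2% of the deeper sites, and both sets are slightly higher again above 0.8 than between 0.7 and 0.8.

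Sites were spread unevenly over genes. A gene had a median of 3 shared sites (quartiles 2 and 7). Of the 8492 genes, 2065 (24.3%) had 1 site and held 4.46% of the named sites, while 242 genes (2.85%) had 21 or more and held 14.5%. The 849 genes with most sites, each with at least 13, held 35.2% of sites. The 849 with the highest summed level held 37.2% of the summed level of all genes. The summed level, the sum of a gene's site levels, is an estimate of the m6A residues per transcript at called sites. It was not divided by transcript length, which the lists do not give. Its median was 1.52 in replicate 1 and 1.53 in replicate 2, with quartiles of 0.656 and 3.32 on the mean. Over shared sites, the relative SD of a gene's sum between libraries had a median of 4.97%. This SD and those of named genes leave out sites called in 1 list only, so the spread of a gene's sum can be wider.

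High and low sites stood in the same genes. At least 1 site at 0.8 or more was found in 3647 genes (42.9%), and 1162 genes (13.7%) had no site at 0.3 or more. In the 5124 genes with at least 3 sites, the highest and lowest site of a gene were apart by a median of 0.630.

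The most sites of any named gene were in Fat1 (83), which encodes a giant atypical cadherin. Ahnak, a very large scaffold protein gene, had 69. Son, a nuclear speckle protein needed for splicing, had 60. Nsd1, a histone H3 lysine 36 methyltransferase, had 54, and Dst, a cytoskeletal linker, and Mga, a MAX-binding transcription factor, had 53 each. Summed levels were 36.3 and 35.7 in Ahnak, 25.7 and 26.8 in Nsd1, 20.1 and 21.6 in Dst, and 28.3 and 28.9 in Mga. These 4 genes had coverages of 32.6 to 43.8 and so were outside the well covered set used below. Their sums over sites of at least 50 reads were 6.53 (Ahnak), 10.96 (Nsd1), 3.82 (Dst) and 8.43 (Mga).

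Sites of a gene lay close to each other. Over 37851 pairs of neighbouring sites on the same gene and strand, the median genomic distance was 94 nt, with quartiles of 38 and 252. Within 100 nt lay 52.0% of the pairs and within 1000 nt 89.6%. Another 1409 pairs (3.72%) were over 10000 nt apart. Distances are along the genome and can cross introns. Pairs were densest at short range. They numbered 311 per nt of distance from 4 to 20 nt, 125 over the 20 nt up to 100 nt, and 41.9 over the 20 nt up to 200 nt.

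Below 4 nt the pairs nearly ended. There were 6 at 1 nt, 7 at 2 nt and 13 at 3 nt, against 263 at 4 nt, 308 at 5 nt and 391 at 6 nt. As the letters of DRACH allow, the nearest 2 such adenosines can stand is 4 nt. The sequence at the sites was not read here. The 26 pairs below 4 nt were in 25 genes, and the higher member of these pairs had a median level of 0.377, against 0.636 for pairs 4 to 10 nt apart.

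**Figure D2:**
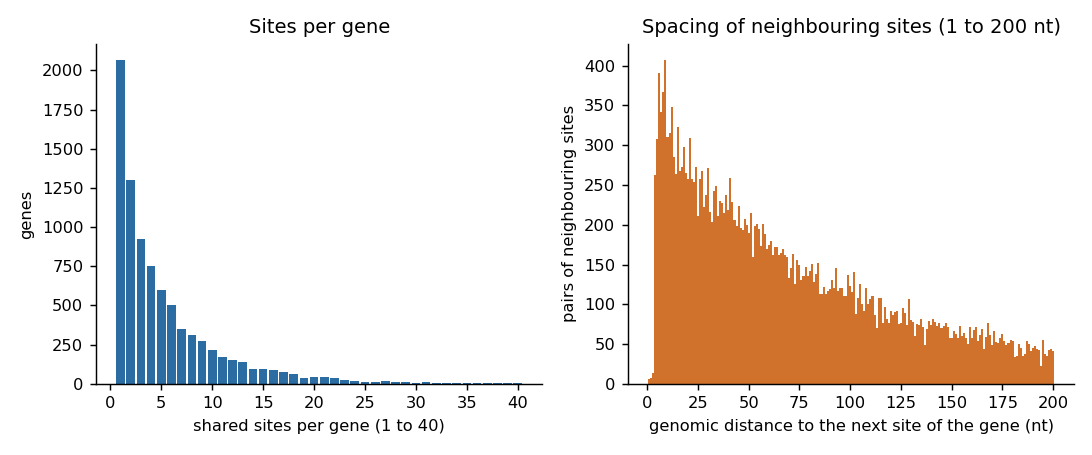
Left, number of genes (vertical axis) by shared sites per gene (horizontal axis, 1 to 40); right, number of pairs of neighbouring sites (vertical axis) by genomic distance in nt (horizontal axis, 1 to 200). The largest class on the left is the 2065 genes with 1 site, and on the right the count steps from 13 pairs at 3 nt to 263 at 4 nt and is highest at 9 nt with 407.

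Neighbouring sites often differed in level. For the 2414 pairs within 10 nt the median difference was 0.239 in replicate 1 and 0.244 in replicate 2, and 0.234 on the mean levels. For the 3935 pairs over 1000 nt apart it was 0.206 and 0.208, and 0.200 on the mean levels. Both are several times the difference of a site between libraries (0.0504). Of the near pairs, 493 (20.4%) differed by 0.5 or more. The higher member of a pair had a median level of 0.636 at 4 to 10 nt and 0.508 at 1001 to 10000 nt. How far sites of different genes differ was not measured. The rho of a site's level with that of its neighbour was 0.126 over all pairs, given as a description over pairs that share a gene and its reads. The same held among sites with at least 50 reads, where the median difference was 0.240 at 4 to 10 nt and 0.180 at 1001 to 10000 nt.

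Nanog, which encodes a homeodomain factor of naive pluripotency, shows this at depth. Its 11 sites on the plus strand of chromosome 6 summed to 3.02 and 2.97. The site at position 122690357 had levels of 0.948 and 0.945 over 601 and 566 reads. The site 12 nt before it had 0.194 and 0.200 over 571 and 531 reads, and the site 19 nt after it had 0.130 and 0.105 over 576 and 525 reads. Thus 1 of the 11 sites was above 0.8, 8 were below 0.3, and each library gave the same picture. In Eef2, the translocation factor of translation, a pair 4 nt apart at positions 81017906 and 81017910 of chromosome 10 had mean levels of 0.248 and 0.326.

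Sox2, encoding the partner factor of OCT4, was chosen as an example after its values were seen. It had 22 sites within 1890 nt of chromosome 3, with a summed level of 10.6 and 10.5. Of these, 6 were at 0.8 or more. The site at position 34705043 had 393 A reads of 396 in replicate 1 and 329 of 329 in replicate 2, while the site 18 nt after it had levels of 0.125 and 0.133. Sites at 34705376 and 34705385, 9 nt apart, had mean levels of 0.275 and 0.807. Sox2 lies inside the noncoding gene Sox2ot on the same strand, so reads of the 2 cannot be told apart.

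Along a gene, levels were lower towards the 3′ end. In 3448 genes with at least 5 sites, sites were ordered 5′ to 3′ and cut into 5 classes by rank. The median level in successive classes was 0.431, 0.456, 0.438, 0.409 and 0.357, and no class's median differed by over 0.01 between libraries. At sites with at least 50 reads the medians were 0.333, 0.371, 0.359, 0.331 and 0.289. A gene's highest site lay in the middle class in 24.8% of genes and in the last in 12.5%. The 5′-most site had a median of 0.394 and 0.397 in the 2 libraries and the 3′-most 0.346 and 0.350. The 5′-most was the higher in 1891 genes (54.8%). Read depth moved with the order, with medians of 43 reads in the first class and 49 in the last, and its part in the order was not tested. Exons, introns and UTRs are not stated, since no annotation of the files' build, mm39, was used here.

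Over all 8492 genes the summed level was almost unrelated to gene coverage by rank (rho −0.0331; −0.0331 and −0.031 in the libraries). This flat value covers sums that were low at both ends. Over 10 classes of coverage, each of 849 or 850 genes, the median summed level was 0.882 in the lowest class, 2.12 in class 4, 2.11 in class 7 and 0.746 in the highest. In the lowest class, 53.4% of genes had 1 site. Coverage sets how many sites can be listed, so the low sums there cannot be told apart from detection. The mean level of a gene's sites was lower at higher coverage (rho −0.447, and −0.161 with sites of at least 50 reads over 4827 genes).

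Well covered genes, those with coverage of at least 50 in both libraries, numbered 3053. Among them the summed level was lower where coverage was higher (rho −0.290; −0.187 with sites of at least 50 reads, over 2793 genes). The median was 2.04 at coverages of 50 to 75 (1260 genes), 1.08 at 100 to 150 (540 genes) and 0.485 at 300 to 500 (116 genes). With sites of at least 50 reads these medians were 1.34, 0.985 and 0.451. A gene enters only with a shared site, and low levels are listed only where reads are many. Genes with only low sites can therefore enter more readily at high coverage, and the part of this in the lower sums was not tested. Over all shared sites, both the number of sites and their levels were lower at higher coverage. Genes at 50 to 75 had a median of 5 sites with a highest site of 0.751, and genes at 300 to 500 had 2 sites with a highest of 0.329. With sites of at least 50 reads the number differed less, with a median of 3 at 50 to 75, 3 at 150 to 200 and 2 at 300 to 500. Above 1000 the median was 0.624 over 22 genes, of which 12 had predicted, pseudogene or structural RNA names. The authors' conversion rate per gene also moved with the summed level (rho −0.704 in well covered genes). Its computation was not given in the sources used here, so its part was not tested.

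**Figure D3:**
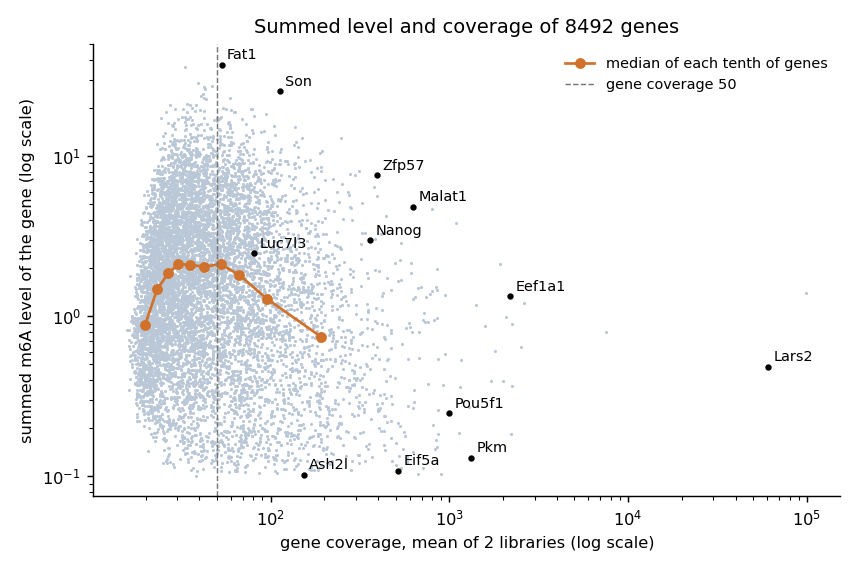
Summed m6A level (vertical log axis) against gene coverage, the mean of the 2 libraries (horizontal log axis), for 8492 genes; grey points are genes, orange points the medians of 10 equal classes of genes by coverage, and the dashed line the minimum of 50. The class medians go from 0.882 to 2.12 and back to 0.746 in the class with the highest coverage.

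The well covered genes had a median of 4 sites, a median summed level of 1.31 and 1.32 in the libraries (1.33 on the mean; quartiles 0.489 and 3.21) and a median mean level of 0.366. A sum below 0.5 was found in 776 genes (25.4%) and a sum of 5 or more in 434 (14.2%). No site reached 0.3 in 708 genes (23.2%). The 703 genes with 1 site had a median level of 0.245, and 33 of them were at 0.8 or more. Near the coverage minimum, Dapk3 and Clpb (lower coverage 50.0 in both) were inside with sums of 0.532 and 0.957, and Pnpla6 and Polr1a (49.9 in both) were outside with 0.429 and 3.24.

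By summed level, the most methylated well covered genes had many sites, which so high a sum requires because no level exceeds 1. The 50 highest had a median of 29 sites, at least 20 each, a smallest sum of 12.1 and a median coverage of 61.6. Fat1 had 37.3 and 37.4, with 12 of its 83 sites at 0.8 or more and 31 below 0.3. Son had 25.6 and 25.4, with 7 of 60 sites at 0.8 or more. Kat6b, a histone acetyltransferase gene, had 23.7 and 22.7 over 46 sites. Its site at position 21721207 of chromosome 14 had 74 A reads of 76 and 56 of 56. This order turned with the read minimum: over sites of at least 50 reads, Son had 19.99, Fat1 18.02 and Kat6b 12.04, so that Son was above Fat1.

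Dag1, the precursor of the dystroglycans, which link the cytoskeleton to the matrix, had 20.04 ± 0.0347 (SD, n = 2) over 44 sites. Epha4, an ephrin receptor tyrosine kinase, had 19.8 and 19.6 over 38 sites, 10 of them at 0.8 or more. Knop1, a nucleolar protein gene, had 19.5 and 19.8 over 36 sites. Zfp280b, a zinc finger gene, had 19.4 and 19.7 from 33 sites within 3732 nt, a median of 66.5 nt apart. The last 3 of the first 10 with clear names were Tns3, a tensin of focal adhesions (19.1 and 18.6), Ppp1r15b, a subunit that guides phosphatase 1 to eIF2α (18.8 and 18.7), and Enc1, a kelch protein (18.4 and 18.1). Among Epha4, Knop1 and Zfp280b the sums differed by less than the SD between libraries, so their order is not set. Tns3 and Ppp1r15b differed by less than the SD of Tns3 (0.379) but not that of Ppp1r15b (0.0651). The order of this pair turned between libraries, so it is not set either. At 50 or more reads Epha4 had 15.97, Enc1 15.47, Knop1 15.44 and Tns3 12.57, against 9.20 in Zfp280b, 8.74 in Ppp1r15b and 6.67 in Dag1.

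The lowest sums over shared sites came from a single site near the calling limit of 0.1. All of the 50 lowest well covered genes had 1 shared site, with sums up to 0.125 and a median coverage of 119. Since no listed level is below 0.1, a gene with more sites cannot have so low a sum. The lowest such sum was in Ash2l, a core subunit of histone H3 lysine 4 methyltransferase complexes, with 43 A reads of 419 (0.103) and 41 of 401 (0.102) at position 26307189 of chromosome 8. Eif5a, a translation elongation factor that carries hypusine, had coverages of 514 and 516 and levels of 0.113 and 0.104 over 681 and 843 reads. Ubb, a polyubiquitin gene, had coverages of 285 and 283 and levels of 0.111 and 0.108. Also among the lowest with clear names were Gtf2i, Rnaset2b, Pnpt1, Ubqln1, Spag7 and Septin1, all between 0.102 and 0.114 in each library. The means of these 9 genes ran from 0.102 to 0.110, a narrower range than the difference between libraries in Ubqln1 (0.114 and 0.102), so their order is not set. These low sums count only sites called in both lists. With all sites of the replicate 2 list alone, Ash2l had 0.622, Septin1 0.320, Spag7 0.302 and Ubqln1 0.241, and with the replicate 1 list alone Gtf2i had 0.206. Genes with no called site are in neither list, so lower genes than these cannot be read from them.

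**Figure D4:**
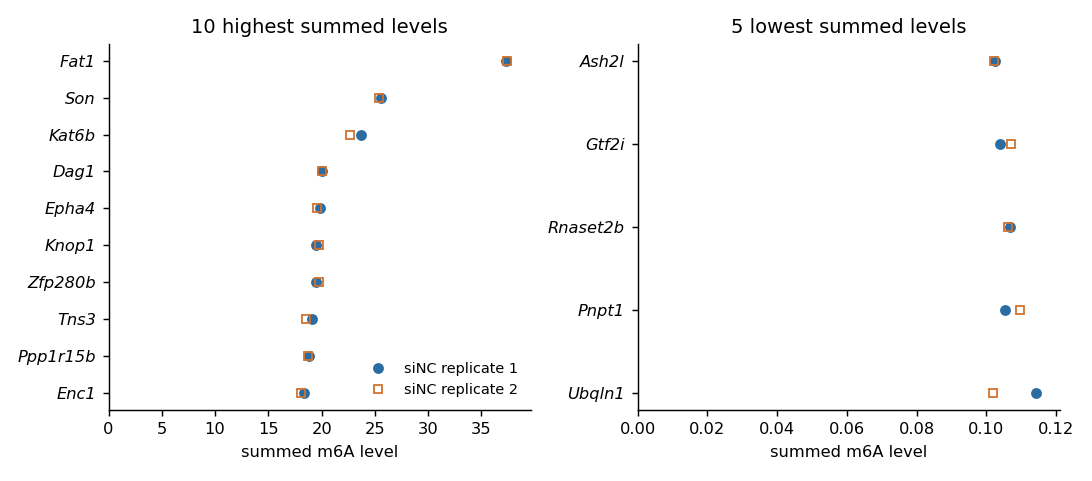
Summed m6A level (horizontal axes, starting at 0, different scales) of the 10 highest (left) and 5 lowest (right) well covered genes with clear names, with replicate 1 as filled circles and replicate 2 as open squares. All called sites are summed, whatever their depth: Fat1 is at 37.3 and 37.4, and the 5 lowest all lie between 0.102 and 0.114.

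By mean level over at least 3 sites, the highest well covered gene was Luc7l3, a splicing regulator. Its 3 sites on chromosome 11 lay within 158 nt and had mean levels of 0.786, 0.833 and 0.848, at 71 to 245 reads. Rnf126, a ubiquitin ligase of protein quality control, averaged 0.814 over 4 sites, with 167 A reads of 171 and 173 of 177 at position 79594611 of chromosome 10. Uqcc3, an assembly factor of respiratory complex III, averaged 0.773, Nudt1, which clears oxidised nucleotides, 0.765, and Ywhah, a 14-3-3 protein, 0.757. Puf60, a splicing factor, averaged 0.768 with a contrast inside it: 0.917 at position 75942157 of chromosome 15 and 0.458 at a site 20 nt away.

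The lowest mean levels were in genes whose sites all had mean levels below 0.2. Srsf9, an SR splicing factor, averaged 0.117 over 3 sites at 150 to 290 reads. Ssr3, of the translocon-associated complex, averaged 0.128 over 4 sites, and Rpn1, of the oligosaccharyltransferase, 0.136. Gorasp2, a Golgi stacking protein, averaged 0.126, Tmco1, a calcium channel of the endoplasmic reticulum, 0.132, and Anxa4, an annexin, 0.141. Between libraries their sums differed most in Tmco1 (0.432 and 0.358).

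Among genes with clear names, the 8 with the highest coverage had sums from 0.130 (Pkm) to 2.12 (Eef2) on the mean. Lars2, the mitochondrial leucyl-tRNA synthetase, had coverages of 62817 and 58932 and 1 site with levels of 0.489 and 0.482 over 183267 and 199199 reads. All sites of the replicate 2 list summed to 1.90 in Lars2. Whether these reads come from the gene or from similar sequence elsewhere was not tested. Eef1a1, the factor that brings aminoacyl-tRNA to the ribosome, came next with coverages of 2282 and 2081, and had 3 sites summing to 1.32 and 1.35. Hsp90ab1 and Hspa8, both cytosolic chaperones, had 2 sites each, summing to 0.383 and 0.409 and to 0.393 and 0.395. Eef2 had 5 sites summing to 2.15 and 2.09, with the highest at 0.843 and 0.854. Pkm, a pyruvate kinase, had 1 site at 0.131 and 0.130. Fth1, the ferritin heavy chain, had 1 at 0.518 and 0.551. Atp5g3, an ATP synthase subunit, had 1 at 0.357 and 0.186 over 70 reads in each, the widest gap of these 8. Several of these genes have near-identical processed copies in the genome, and reads shared with them are uncertain.

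Genes were also grouped by function. Of 24 lists with 717 genes, 466 genes had a shared site, and 22 lists had well covered members. The median sum of those members was below that of all well covered genes (1.33) in 6 lists and above it in 16. Sums are not per length, so the median mean level per site was also read (0.366 over all well covered genes). Among lists with median sums above 1.33, it was below 0.366 in cytoskeleton (0.344), Hippo (0.326), and fibroblast markers (0.326). It was also below in primitive endoderm (0.315) and cell cycle (0.315). In the others it ran from 0.372 (long noncoding RNAs) and 0.378 (p53 pathway) to 0.465 (m6A readers and erasers). A higher sum thus did not always go with a higher level per site.

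The lists of housekeeping complexes had the lowest medians. Lists also differed in coverage, and sums of well covered genes were lower at higher coverage. Median coverage of the well covered members was 273.4 in ribosomal proteins, 180.4 in proteasome genes and 406.5 in chaperones. It was 65.9 in the Hippo list and 83.8 over all well covered genes. Cytoskeleton (247.4), long noncoding RNAs (188.8) and pluripotency (138.1) had median sums above 1.33. For all well covered genes the median sum was 0.485 at coverages of 300 to 500, beside 0.818 in chaperones. It was 1.08 at 100 to 150, beside 1.15 in splicing factors (130.9). At 200 to 300 it was 0.695, beside 0.338 in ribosomal proteins and 0.264 in oxidative phosphorylation (201.4). At 150 to 200 it was 0.886, beside 0.512 in proteasome genes. Glycolysis (98.2) had 0.613, beside 1.42 at 75 to 100. The part of coverage in the list medians was not tested. Of 82 ribosomal protein genes, 23 had a shared site and 20 were well covered, with a median sum of 0.380 and 0.328 in the libraries and a median mean level of 0.225; 17 were below 1.33 and 3 above. Rps3 had 7 sites summing to 1.51 and 1.52, Rpl22 5 summing to 1.67 and 1.83, and Rpl23 1 site at 0.119 and 0.111. Of 92 nuclear genes of oxidative phosphorylation, 38 had a shared site and 34 were well covered, with a median sum of 0.291 and 0.240 and a median mean level of 0.204; 31 were below and 3 above. Ndufb2 of complex I had 1 site at 0.132 and 0.105, while Uqcrfs1, the Rieske protein of complex III, had 8 sites summing to 2.49 and 2.35. With all sites of the replicate 1 list alone, Rpl23 had 0.224 and Ndufb2 0.259.

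Of 32 proteasome genes, 21 had a shared site, all of them well covered, with a median sum of 0.520 and 0.529. Psmd7, a lid subunit, was the highest with 12 sites summing to 5.07 and 4.78. In glycolysis (15 of 21 genes, 14 well covered) the median was 0.617 and 0.608, and Hk2, the inducible hexokinase, had 20 sites summing to 9.53 and 9.62. For chaperones (25 of 26, 23 well covered) it was 0.835 and 0.809, and for splicing factors (28 of 30, all well covered) 1.13 and 1.18. Dnajb1, a heat-inducible cochaperone, had 8.16 and 8.19 over 14 sites, and Cct7, of the chaperonin, 1 site at 0.121 and 0.115 (0.265 over all sites of the replicate 1 list). Over sites of at least 50 reads Dnajb1 had 4.02.

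Lists of regulators of cell identity had higher medians. Of 28 pluripotency genes, 26 had a shared site and 19 were well covered, with a median sum of 4.26 and 3.98, a median mean level of 0.443, and 15 above 1.33 against 4 below. Zfp281, a zinc finger regulator of pluripotency exit, had 28 sites summing to 15.2 and 14.7. Pou5f1, which encodes OCT4 and has the highest coverage of the list (983 and 1006), had 1 shared site, at position 35817224 of chromosome 17, with 903 A reads of 3591 and 799 of 3274 (0.251 and 0.244). Stat3, the signal transducer of LIF, also had 1 shared site, at 0.170 and 0.158. Both low sums rest on the call in both lists: with all sites of the replicate 1 list alone Stat3 had 0.612 and Pou5f1 0.403, and with the replicate 2 list alone 0.265 and 0.244. Zfp281 had 7.98 over sites of at least 50 reads. Over shared sites the list thus ran from single low sites to sums above 10.

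Of 32 Polycomb and chromatin regulators, 27 had a shared site and 12 were well covered, with a median sum of 3.87 and 4.23 and 11 above 1.33. Setdb1, a histone H3 lysine 9 methyltransferase, had 18 sites summing to 8.50 and 8.57, and Smarca4, the ATPase of BAF complexes, 2 summing to 0.420 and 0.346 (0.591 over all sites of the replicate 1 list). In the DNA methylation list (9 of 11, 6 well covered) Tet1, a 5-methylcytosine oxidase, had 40 sites summing to 16.2 and 16.5, against 1 site at 0.293 and 0.214 in Dnmt1, the maintenance methyltransferase. Tet1 had 3.88 over sites of at least 50 reads. Zfp57, which keeps imprints methylated, had 16 sites summing to 7.63 and 7.64 at coverages of 404 and 388.

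For the p53 pathway (19 genes with a shared site, 13 well covered) the median sum of the well covered genes was 5.25 and 5.32. Aen, a p53-induced nuclease, had 30 sites summing to 13.7 and 14.2, and Trp53 itself 2 sites summing to 0.276 and 0.302. FGF-ERK genes had a median of 2.26 and 2.33 over 16 well covered genes. Its feedback phosphatase Dusp6 had 27 sites (10.8 and 10.4), the ligand Fgf4 21 sites (9.91 and 9.85), and the kinase Mapk3 1 site (0.259 and 0.171), or 0.359 over all sites of the replicate 1 list. Aen had 5.94 and Dusp6 6.86 over sites of at least 50 reads. Among 7 well covered long noncoding RNAs the median was 4.74. Lncenc1, a noncoding RNA of naive stem cells, had 24 sites (10.9 and 10.7), Neat1, the paraspeckle scaffold, 24 (7.84 and 7.69), and Malat1 13 (4.72 and 4.95). Mir17hg, the host gene of the miR-17 cluster, had 1 at 0.111 ± 0.0153 (SD, n = 2).

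Signalling lists had medians from 1.98 (Wnt, 4 well covered genes) through 2.51 (TGF-beta, BMP and Notch, 8 genes) to 3.43 (Hippo, 6 genes). With sites of at least 50 reads these were 1.58, 2.27 and 1.87, so that the Hippo list was no longer the highest. In the Wnt list the receptor Fzd5 had 35 sites summing to 17.7 and 17.4, the adaptor Dvl2 2 sites (0.284 and 0.320), and β-catenin (Ctnnb1), at coverages of 553 and 524, 9 sites (2.84 and 2.89). In the Hippo list the scaffold Amotl2 had 22 sites (10.2 and 10.1), the coactivator Yap1 14 sites (4.21 and 4.37), and the target gene Ccn2 1 site (0.272 and 0.355). Fzd5 had 7.89 and Amotl2 5.81 over sites of at least 50 reads. With all sites of the replicate 1 list alone Dvl2 had 0.615 and Ccn2 0.666, and with the replicate 2 list alone Dvl2 had 0.460. Of the antagonists of NODAL, Lefty2 had 8 sites (2.30 and 2.07) and Lefty1 2 sites (0.562 and 0.526). Cytoskeleton (1.45, 19 genes), cell cycle (1.34, 19 genes) and translation factors (1.34, 29 genes) had medians near 1.33, and with sites of at least 50 reads the latter pair lay below the median of all (0.995 and 1.02 against 1.07). Cyclin A2 (Ccna2) had 1 site (0.229 and 0.200), and Cdkn1a, the p21 inhibitor of cyclin-dependent kinases, 5 sites (1.37 and 1.26) at coverages of 660 and 624. β-tubulin Tubb5 had 9 sites (3.81 ± 0.157, SD, n = 2), and Tuba1b 1 site (0.188 and 0.197). The primitive endoderm list (7 genes) had a median of 1.55, or 1.04 with sites of at least 50 reads. There Lamc1, a laminin chain gene, had 20 sites (6.21 and 6.38), and Lama1, another laminin chain, 1 site (0.130 and 0.121). Each list alone gave Lama1 more, 0.252 in replicate 1 and 0.230 in replicate 2, and Ccna2 had 0.446 in the replicate 1 list.

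**Figure D5:**
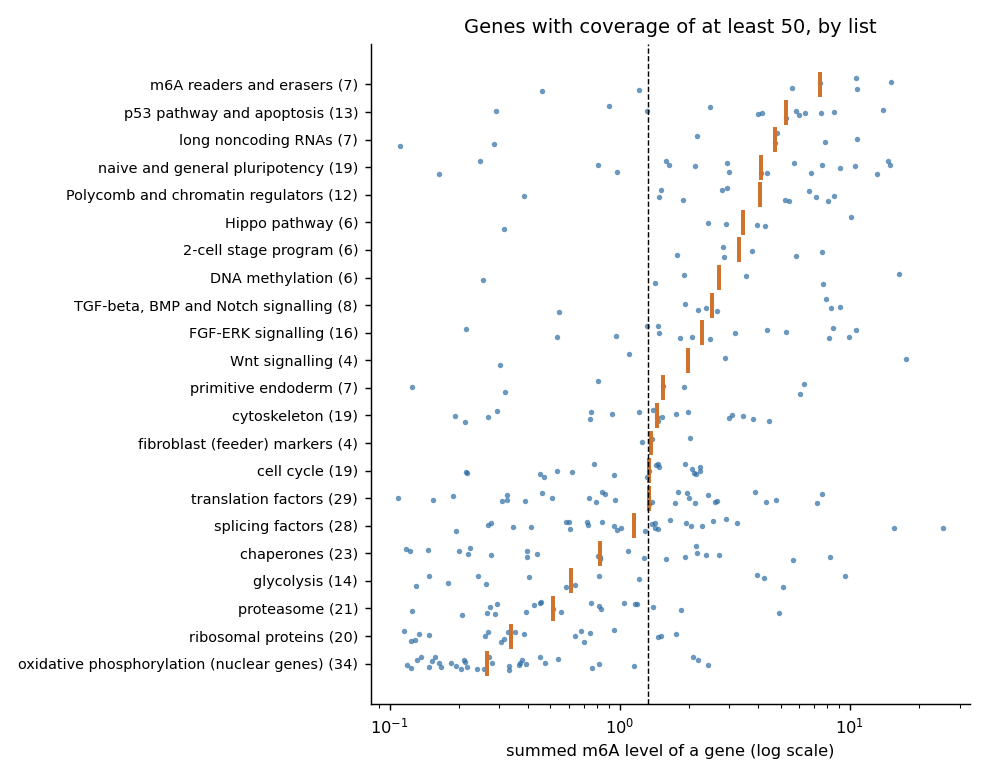
Summed m6A level (horizontal log axis) of the well covered genes of 22 lists (vertical axis, number of genes in brackets); points are genes, orange bars list medians, and the dashed line the median of all 3053 well covered genes (1.33). List medians run from 0.264 for oxidative phosphorylation to 7.44 for m6A readers and erasers.

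The m6A machinery carried m6A itself. Of 11 writer genes, 9 had a shared site and none was well covered. Virma, the largest subunit of the writer complex, had 29 sites summing to 15.2 and 16.1. Wtap, its adaptor, had 9 sites (4.92 and 4.88), and Mettl14, of the catalytic pair, 4 sites (1.61 ± 0.163, SD, n = 2). Of 14 reader and eraser genes, 11 had a shared site and 7 were well covered, with a median sum of 7.77 and 7.10. With sites of at least 50 reads that median was 2.10, and Ythdf3 had 8.87. The cytoplasmic readers Ythdf3 (27 sites, 15.3 and 14.9) and Ythdf1 (23 sites, 10.4 and 10.8) were high. Hnrnpa2b1, an RNA-binding protein proposed as a nuclear reader, was low at 2 sites (0.497 and 0.422). The eraser Alkbh5 had 10 sites (5.29 and 5.91).

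Genes of the 2-cell program with a shared site numbered 19 of 37. Their median sum was 0.860, below the 1.53 of all genes with a shared site. Only 6 of the 19 were well covered, among them Eif1a, which is also in the translation factor list. All 6 had sums above 1.33. Over sites of at least 50 reads their median was 1.63, against 1.07 for all well covered genes, and not all 6 were above it: Dppa4 had 0.917. Zscan4d, a member of a cluster that marks totipotent-like cells, had 6 sites summing to 2.78 and 2.82, with the highest at 0.737 and 0.778 over 19 and 18 reads. Dppa4, an activator of the program, had 4 sites (1.74 and 1.81). The Zscan4 and Usp17l genes are near-identical copies, and how reads were divided among them is uncertain. The 4 well covered fibroblast markers had a median sum of 1.37, close to that of all well covered genes.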

How the data were processed

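GLORI libraries were made from mRNA, per the labels' protocols, on build mm39, per the submitters' processing notes. Aligner and caller were not given in the sources used here. The deposited lists give, per called site, A+G and A read counts and the level as a fraction, per the file headers; the level matched A over A+G within 1e-05. The authors' adjusted p-value (largest 0.00400) was only inspected. Gene coverage is a signal and the conversion rate a fraction, both deposited per gene, with no computation stated.

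Groups came from sample titles. Unnamed sites (3211, 6.48%) were left out of gene values. Replicates were compared by Fisher's exact test, which was tested on simulated data; all else is description without tests. The lists give read counts without molecular identifiers, so the counted reads may not be independent molecules. Predicted, clone, pseudogene and structural RNA names (929 genes) were counted but not named, except Gm26917. Named genes were the 10 highest and lowest sums, 6 highest and lowest mean levels, 8 highest coverages, 6 with most sites, and extremes and best covered genes per list; others are named as markers or list examples. An item that the rule took is not reported here. Members, lists and rules were chosen with earlier results of these data known. Alternatives were coverage minimums, pooled levels, single libraries, gene names and thresholds. Of the symbols, 8392 were found in GRCm38.p6 name tables. Python 3.11.15, numpy 2.4.6, pandas 2.3.3, scipy 1.17.1 and matplotlib 3.10.9 were used.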

Additional observations from a re-analysis of the deposited data

How the results depend on the processing

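The read minimum moved most values. At 50 or more A+G reads in both libraries there were 19384 sites, with a median level of 0.317, 2 sites per gene, a spacing of 92 nt and a difference of 0.239 between neighbours within 10 nt. The rho of summed level and coverage was then 0.110, and the median sum of well covered genes 1.07. With at least 20 reads the median level was 0.378, rho 0.00844 and the median sum 1.31. Sites called in either list gave a median level of 0.345, 4 sites per gene, a spacing of 80 nt, a near difference of 0.216 and a rho of −0.0611. Without predicted, pseudogene and structural RNA names there were 4 sites per gene, a rho of 0.0158 and a median sum of 1.55. Distances up to 1000 nt had a median of 79 nt. The rho was −0.0758 over genes with at least 3 sites and −0.290 over well covered genes. Its sign over all genes thus turned with the minimum of reads and with the gene names. A coverage minimum of 30 or 100 gave 5470 or 1126 well covered genes with median sums of 1.63 or 0.819.

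Leaving out each replicate in turn, with all sites of the other list, gave median levels of 0.368 to 0.371, 4 to 4 sites per gene, spacings of 86 to 88 nt, near differences of 0.233 to 0.235, rho values of −0.0508 to −0.0402, 3260 to 3486 well covered genes and median sums of 1.28 to 1.31. Fisher's test called 2 sites, and 3 at 50 reads. Pooling reads moved the sum of 1 of 122 named genes beyond the spread between libraries. All sites of the replicate 2 list alone moved 47 and those of the replicate 1 list alone 69, all of them higher. At 50 or more reads 55 moved, none of them higher, and 64 did not. The directions of the single-list and read-minimum moves follow from which sites count. A single list holds all shared sites and more, and the read minimum only removes sites. What set the size of the moves was not tested. The medians of translation factors and the cell cycle changed sides of the median of well covered genes at 50 reads (1.02 and 0.995 against 1.07), as did that of primitive endoderm (1.04); the first pair also lay below it in each list alone. The alternatives for list and summed medians were chosen after seeing the data. No paired analysis was possible because only 1 group was analysed. Depth limits low levels, which cannot be listed at sites with few reads.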
